A study of Homo sapiens with 12 samples.

Results

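Genes of the NF-kB pathway and of its feedback loops are described here in KYSE150 cells, an established line of esophageal squamous cell carcinoma, with and without the transcription factor TFAP2β. The members were 39 genes chosen by symbol, with earlier results of these data known. They comprise the REL subunits, the IkB family, the kinases and ubiquitin regulators of the pathway, and described targets. They took 40 of the 24302 rows of the count table, since SOD2 is listed under 2 Ensembl identifiers. Of these, 38 rows passed the filter on low counts, along with the rest of the 14792 features tested. CSF2 and the second SOD2 row did not pass. LTB and TNF passed only through the group with TFAP2β, so they were bound to differ there.

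The study sequenced mRNA libraries in 4 groups of 3. One group received GFP alone and is the control. The second received GFP-TFAP2β, the fusion with the unaltered protein, called WT below. The third received GFP-TFAP2β-Mut_IDR3 (Mut_IDR3) and the fourth GFP-TFAP2β-ΔIDR3 (ΔIDR3, written dIDR3 in the plots), both described by the submitters as deficient in liquid-liquid phase separation. All groups share the KYSE150 background, the GFP tag and culture in RPMI medium with fetal bovine serum, and the labels name no added cytokine. How the constructs were delivered, and whether each group is 1 clone or a pool, is not given in the sources used here. The labels number the libraries without saying that they come from separate cultures, so p-values measure the spread between these libraries, which may be technical.

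NF-kB is a family of dimers of REL proteins that IkB proteins hold in the cytoplasm. Receptors for cytokines and microbial products activate the IKK kinase complex, IkB is degraded, and the dimers enter the nucleus and bind kB sites. Many of the genes they switch on encode brakes on the same pathway, above all NFKBIA and TNFAIP3, so the RNA of these feedback genes is often read together with that of other targets. Squamous epithelia use the pathway in the response to injury and infection. RNA levels do not measure where the NF-kB proteins are or what they bind.

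The libraries held 30652851 to 43464956 counts. TFAP2B itself was at 0.124 ± 0.142 CPM (read counts relative to library size, with TMM factors; mean ± SD, n = 3 in each group) with GFP, 280.3 ± 45.6 in WT, 702 ± 25.9 in Mut_IDR3 and 704 ± 62.8 in ΔIDR3. TFAP2B RNA thus separated the GFP libraries from the rest, but counts over the whole gene do not show which of the TFAP2β constructs a library carries; Mut_IDR3 had 2.5-fold and ΔIDR3 2.51-fold more of it than WT (adjusted p = 5.11e-07 and 3.07e-07). The 8 markers of squamous epithelium were present in every group, with summed levels of 4746 to 6394 CPM. The largest part was KRT5, with group means of 2902 to 3625 CPM. Single markers differed between groups. KRT14 had means of 227 CPM with GFP, 806 in WT, 56.2 in Mut_IDR3 and 46.6 in ΔIDR3. From GFP to WT the mean of CDH1 went from 297 to 607 CPM, that of EPCAM from 173 to 172 and that of TP63 from 162 to 126. Of 9 leukocyte markers PTPRC and SPI1 were among those with 0 counts in all groups, and the summed level was 0.707 to 2.71 CPM. The 6 fibroblast markers summed to 2.61 to 3.68 CPM with GFP and 5.34 to 6.56 CPM in WT, nearly all of it COL1A1. The share of counts from mitochondrially encoded mRNA also moved with the groups. It was 9.92 to 10.7% with GFP, 5.38 to 6.09% in WT, 8.20 to 8.63% in Mut_IDR3 and 7.67 to 7.79% in ΔIDR3, and the part of this share or of the fibroblast markers in the results below was not tested. In bulk RNA a change in the share of cells and a change in RNA per cell cannot be told apart.

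The starts of many of these genes hold kB sequences, which are shown here because they were found for 18 of the 33 genes with a window to search. Promoter windows of 300 bases from RefSeq (build GRCh38.p14) were found for those 33 of the 39 genes; CSF1, NFKBIE, IKBKB, RELB, RIPK2 and LIF had none in the table used. The kB consensus is a described form of the sequences that REL dimers bind. It was searched on both strands as GGGRNWYYCC, where R is A or G, W is A or T, Y is C or T and N is any base. Sequences that depart from this pattern were not counted. A kB match was present in 40.68% of the 59 windows of these genes and in 5.91% of all 35116 windows. The members were chosen as NF-kB genes and described targets, so this share gives no independent support. Windows of the same gene can overlap and hold the same site, as for LTB and MAP3K8. Genes with more windows also had more chances of a match. The palindrome GCCNNNGGC, a described AP-2 binding sequence, was found for 16 of the 33 genes, in 32.2% of their windows against 23.2% of all windows. Counted by gene, 7.09% of all 27305 genes with a window held a kB match and 26.55% held GCCNNNGGC. A match is a string of letters and not a measured binding site. The 120 bases before the start of 7 members read as follows, 5′ to 3′ on the strand of the gene, with kB matches in capitals.
NFKBIA, chr14:35404750-35404869, minus strand: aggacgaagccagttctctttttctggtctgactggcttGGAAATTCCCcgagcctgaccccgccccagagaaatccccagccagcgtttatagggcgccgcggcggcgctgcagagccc
TNFAIP3, chr6:137867139-137867258, plus strand: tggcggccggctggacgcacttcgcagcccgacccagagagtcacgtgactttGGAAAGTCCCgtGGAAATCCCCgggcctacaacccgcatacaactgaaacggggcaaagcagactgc
TNIP1, chr5:151081035-151081154, minus strand: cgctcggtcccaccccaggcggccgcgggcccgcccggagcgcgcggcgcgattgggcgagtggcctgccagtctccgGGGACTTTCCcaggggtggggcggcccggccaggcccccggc
IL6, chr7:22727080-22727199, plus strand: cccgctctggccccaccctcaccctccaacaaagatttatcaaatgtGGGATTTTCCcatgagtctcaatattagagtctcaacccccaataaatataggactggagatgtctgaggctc
NFKB2, chr10:102394458-102394577, plus strand: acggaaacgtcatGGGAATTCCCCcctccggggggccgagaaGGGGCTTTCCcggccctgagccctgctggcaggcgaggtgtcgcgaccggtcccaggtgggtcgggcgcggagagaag
NFKB1, chr4:102501239-102501358, plus strand: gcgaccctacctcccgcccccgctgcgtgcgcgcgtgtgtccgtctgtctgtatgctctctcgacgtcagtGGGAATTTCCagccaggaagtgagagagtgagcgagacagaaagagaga
REL, chr2:60881454-60881573, plus strand: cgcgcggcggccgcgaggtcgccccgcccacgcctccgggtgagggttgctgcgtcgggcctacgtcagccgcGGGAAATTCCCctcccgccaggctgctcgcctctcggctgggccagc

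Counted from the start as 1, with no position 0, the single kB match of NFKBIA lies at -81 to -72. TNFAIP3 carries a pair of matches, at -67 to -58 and at -55 to -46. IL6 has its match at -73 to -64. In the NFKB2 window shown, overlapping matches reach from -107 to -97 and another lies at -78 to -69. The first 6 of these 7 genes were higher in WT than with GFP, and REL, whose match is of the same consensus, was lower. The 7 windows shown all hold a match and are not a sample of the members. NFKB1, NFKB2 and TNIP1 each have another listed start with no match in the 120 bases before it. TRAF1 and ICAM1 also rose in WT, and their windows held no match to the pattern searched. The ICAM1 window does hold tggaaattcc, which departs from that pattern only at its opening base. The lack of a match is thus not the lack of a kB site. Of the 26 members that rose in WT, 23 had a window and 13 of these held a kB match. A match was also present for 4 of the 6 genes with a window that were not called, namely BIRC3, CYLD, TRAF3 and CFLAR. In a fit that removes a trend with GC content, described below, BIRC3, CYLD and CFLAR were called higher in WT and TRAF3 lower. The classes are small and their members were chosen as NF-kB genes, so a link between matches and calls was not tested. For 13 of the 23 that rose and for 2 of the 6 that were not called the window held GCCNNNGGC. Over all genes with a window the shares were 7.09% for a kB match and 26.55% for GCCNNNGGC.

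WT against GFP compares the group given the unaltered protein with the control. Of the 38 members tested, 26 were higher in WT and 4 were lower at an adjusted p under 0.05 by edgeR's quasi-likelihood test, and 8 were not called. Over all 14792 features 27.7% were higher and 27.1% lower. A change of at least 2-fold was found for 17 members upwards and 1 downwards, against 4.18% and 7.02% of all features. The 26 and the 17 include TNF and LTB, which passed the filter only through WT and so were bound to differ there. Fold changes in these libraries moved with the GC content of the transcript, and calls lost in a fit with offsets that remove this trend (GC offsets) are given beside the members they touch. The median log2 fold change was 0.71 over the members tested and -0.01 over all features. Leaving aside TNF and LTB, which had few counts, the 5 largest rises were in the cytokines IL6 and IL32, the feedback inhibitors TNFAIP3 and NFKBIA and the adaptor TRAF1, and the largest fall was in REL. The median of the members, set against the GFP mean of each, was 0.79, 0.61 and 0.88 on the log2 scale in the 3 WT libraries. In the GFP libraries it lay between -0.02 and 0.03, in Mut_IDR3 between 0.04 and 0.09, and in ΔIDR3 between 0.01 and 0.06.

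**Figure D1:**
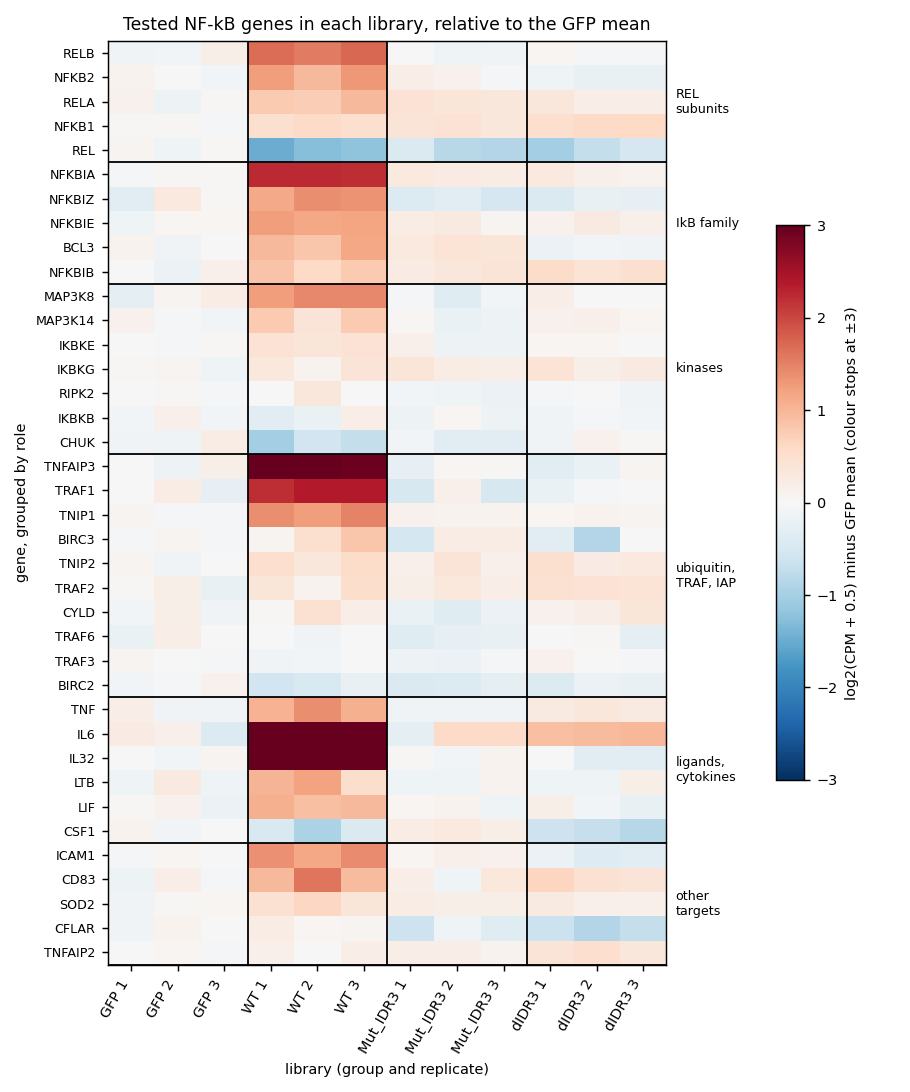
Each row is a tested member, grouped by role, and each column a library; colour gives log2(CPM + 0.5) minus the mean of the GFP libraries, with red above and blue below and the scale stopping at ±3. The WT columns are red or pale red for the 26 members called higher and blue for REL, CHUK, BIRC2 and CSF1, and the columns of Mut_IDR3 and dIDR3 stay near the GFP level for most genes.

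The mutants against WT compare the groups given the altered proteins with the group given the unaltered one. TFAP2B RNA was 2.5-fold higher in Mut_IDR3 and 2.51-fold higher in ΔIDR3 than in WT, and clone or pool is not given. Effects of the altered region, of the construct level and of the line cannot be told apart here. In Mut_IDR3 26 members were lower than in WT, 3 were higher and 9 were not called; over all features 20.9% were lower and 23.2% higher. In ΔIDR3 24 were lower, 3 higher and 11 not called, against 25.0% and 27.2% of all features. Falls of at least 2-fold numbered 15 in Mut_IDR3 and 17 in ΔIDR3, against 3.77% and 5.19% of all features, and there was no member with a rise of that size, where 2.8% and 4.0% of all features had one. The median log2 fold change over the members was -0.55 in Mut_IDR3 and -0.66 in ΔIDR3, and 0.03 over all features in each. These comparisons use the WT libraries that were also compared with GFP, so the counts are not independent of each other. The lower calls in each mutant include TNF and LTB, which passed the filter only through WT.

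Against GFP fewer members passed the test in the mutants than in WT. In Mut_IDR3 5 members were higher, 3 lower and 30 not called, with 11.2% and 9.85% of all features. In ΔIDR3 10 were higher, 5 lower and 23 not called, with 15.6% and 13.4% of all features. No member was called with a change of 2-fold or more in Mut_IDR3, where 0.446% of all features rose and 0.622% fell that far. In ΔIDR3 IL6 was the only such call, with a 2.23-fold rise, where 0.919% of all features rose and 2.08% fell that far. The medians, 0.02 in each mutant, were near those of all features, -0.01 and -0.02. Several of these calls rest on single libraries. Without GFP replicate 2, higher calls fell to 2 in Mut_IDR3 and to 5 in ΔIDR3, and without WT replicate 2, which enters only through the shared fit, Mut_IDR3 had 8. Without Mut_IDR3 replicate 2 higher calls in Mut_IDR3 were 2, and without GFP replicate 1 they were 3, with 5 lower. Leaving out GFP replicate 3 or Mut_IDR3 replicate 1 left 1 lower call in Mut_IDR3. In ΔIDR3 leaving out GFP replicate 3 or ΔIDR3 replicate 1 left 5 higher calls.

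**Figure D2:**
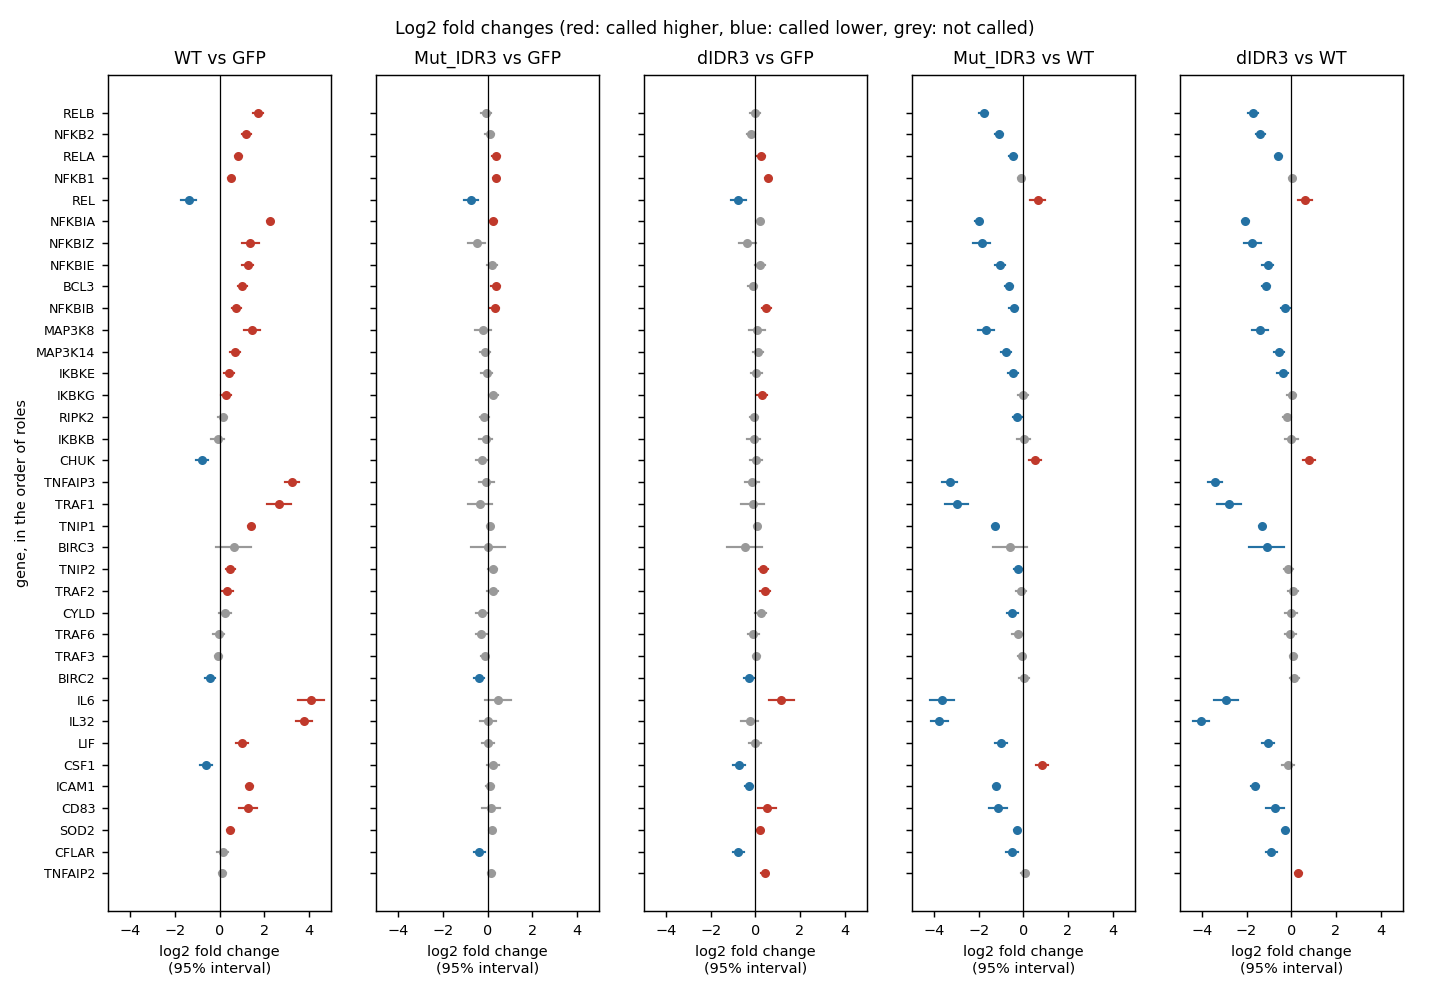
Points are log2 fold changes of 36 tested members, in the order of their roles, with 95% intervals as bars, in 5 comparisons; red marks a higher and blue a lower call and grey no call, and TNF and LTB are left out because of groups at or near 0 counts. Most members lie right of 0 in WT vs GFP, near 0 in the mutants vs GFP and left of 0 in the mutants vs WT, while REL and CHUK lie left of 0 in WT vs GFP and right of 0 in the mutants vs WT.

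Among the REL subunits, RELB, NFKB2, RELA and NFKB1 rose in WT and REL fell. RELB, the partner of the processed NFKB2 product in the noncanonical pathway, was at 8.29, 8.44 and 10.1 CPM with GFP and at 29.4, 27.3 and 30.7 CPM in WT. In Mut_IDR3 it was at 9.03, 8.14 and 8.26 CPM and in ΔIDR3 at 9.26, 8.68 and 8.47 CPM. Only the WT libraries stood apart, with no overlap, and the other groups overlapped each other. The rise in WT was 3.26-fold (log2 fold change 1.71, SE 0.10, adjusted p = 6.13e-09), and RELB was 3.44-fold lower in Mut_IDR3 and 3.31-fold lower in ΔIDR3 than in WT. NFKB2, the precursor of a DNA-binding subunit, was at 56.5, 51.9 and 49.4 CPM with GFP and at 127, 104 and 131 CPM in WT. The mutants held 60.9, 57.1 and 50.9 CPM (Mut_IDR3) and 48.3, 44.9 and 45.02 CPM (ΔIDR3). WT was again above every other library, 2.29-fold over GFP (adjusted p = 5.15e-08).

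RELA, which carries the transactivating domain of the canonical dimer, changed in a graded way. Its level was 70.9, 58.5 and 66.4 CPM with GFP, 113, 109 and 128 CPM in WT, 88.2, 83.3 and 82.7 CPM in Mut_IDR3 and 83.2, 75.3 and 74.95 CPM in ΔIDR3. The 4 groups ran from GFP through the mutants to WT, with the mutants overlapping each other and neither overlapping GFP or WT. WT was 1.79-fold over GFP (adjusted p = 4.6e-07), Mut_IDR3 1.297-fold (0.00437) and ΔIDR3 1.19-fold (0.024). The call in ΔIDR3 was lost without GFP replicate 2, GFP replicate 3 or ΔIDR3 replicate 1 (adjusted p = 0.0696 to 0.156) and with GC offsets (0.0982). NFKB1, the precursor of the other DNA-binding subunit and itself a described target, was at 36.8 ± 1.28 CPM (SD, n = 3) with GFP, 52.8 ± 1.76 in WT, 48.3 ± 1.41 in Mut_IDR3 and 54.6 ± 1.83 in ΔIDR3. It rose over GFP in all 3 TFAP2β groups, by 1.43, 1.31 and 1.48-fold, and neither mutant differed from WT at the threshold. The 95% intervals of those log2 differences were -0.26 to 0.01 for Mut_IDR3 and -0.09 to 0.18 for ΔIDR3. REL, the subunit best known in lymphocytes, went the other way. It was at 19.1, 16.3 and 18.4 CPM with GFP, 6.09, 7.07 and 7.44 CPM in WT, 13.1, 9.75 and 9.58 CPM in Mut_IDR3 and 8.56, 10.8 and 12.4 CPM in ΔIDR3. Every GFP library was above every mutant library, and every mutant library above every WT library. REL was 2.61-fold lower in WT than with GFP (adjusted p = 2.75e-06), 1.67-fold lower in Mut_IDR3 (0.00421) and 1.697-fold lower in ΔIDR3 (0.0016). With GC offsets its log2 fold change in WT went from -1.38 to -0.79, and neither mutant was called higher than WT (adjusted p = 0.075 and 0.27).

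The 5 genes of the IkB family all rose in WT, and all 5 were lower in each mutant than in WT. Of these, NFKBIB was not called against WT in either mutant with GC offsets. NFKBIA (chr14:35401511-35404749, minus strand, GRCh38) encodes the classical IkB that retains RELA dimers and is resynthesised in their presence, and its window with the single kB match is shown above. It was at 17.2, 18.3 and 18.2 CPM with GFP and at 85.6, 85.6 and 84.4 CPM in WT. In Mut_IDR3 it was at 21.96, 21.2 and 20.9 CPM and in ΔIDR3 at 21.9, 19.8 and 19.4 CPM. The WT libraries differed among themselves by little and stood far above the rest, and the mutants lay just above GFP without overlap. The fold change in WT was 4.76 (log2 2.25, SE 0.07, adjusted p = 6.15e-12), the lowest p among the members. Against GFP the log2 fold change was 0.25 in Mut_IDR3 (adjusted p = 0.0215) and 0.19 in ΔIDR3 (adjusted p = 0.0623). The call in Mut_IDR3 was lost without any 1 of the GFP libraries and without Mut_IDR3 replicate 1 or 2 (adjusted p = 0.0506 to 0.0808), and with GC offsets (0.197).

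NFKBIE, another cytoplasmic IkB, was at 5.82, 6.74 and 6.77 CPM with GFP, 15.95, 14.9 and 15.3 CPM in WT, 7.55, 7.796 and 6.89 CPM in Mut_IDR3 and 7.11, 7.896 and 7.16 CPM in ΔIDR3. The mutants exceeded GFP slightly without overlap, a difference that did not pass the test, while WT was 2.39-fold over GFP (adjusted p = 2.9e-07). BCL3, a nuclear IkB that binds dimers of the DNA-binding subunits, separated the mutants. It was at 27.9, 23.96 and 25.9 CPM with GFP, 51.3, 46.3 and 58.8 CPM in WT, 31.9, 34.5 and 33.2 CPM in Mut_IDR3 and 22.9, 24.3 and 23.9 CPM in ΔIDR3. Mut_IDR3 lay between GFP and WT, and ΔIDR3 within or below the GFP range. The rise in WT was 2.01-fold (adjusted p = 3.3e-07), and Mut_IDR3 was 1.402-fold over ΔIDR3 (adjusted p = 0.00376). NFKBIB was at 32.5, 28.4 and 35.9 CPM with GFP, 58.3, 48.8 and 55.6 CPM in WT, 38.03, 40.8 and 41.8 CPM in Mut_IDR3 and 47.5, 42.8 and 45.3 CPM in ΔIDR3. All 3 TFAP2β groups were above GFP without overlap, with adjusted p-values of 7.52e-06, 0.0257 and 0.00125. The call in Mut_IDR3 was lost without GFP replicate 1 or 2 or Mut_IDR3 replicate 2 or 3 (adjusted p = 0.065 to 0.119), and with GC offsets (0.181). The difference of ΔIDR3 from WT was lost without WT replicate 1 or 3 or ΔIDR3 replicate 2 (0.0584 to 0.11). With GC offsets the log2 difference from WT was -0.20 in Mut_IDR3 (adjusted p = 0.08) and 0.06 in ΔIDR3 (0.566). NFKBIB overlaps SIRT2 on the opposite strand, and the strand setting of the counting is not given in the sources used here. NFKBIZ, a nuclear IkB needed for the induction of late targets such as IL6, was 2.59-fold higher in WT than with GFP (adjusted p = 7.8e-06) and 3.65-fold and 3.34-fold lower in the mutants than in WT.

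**Figure D3:**
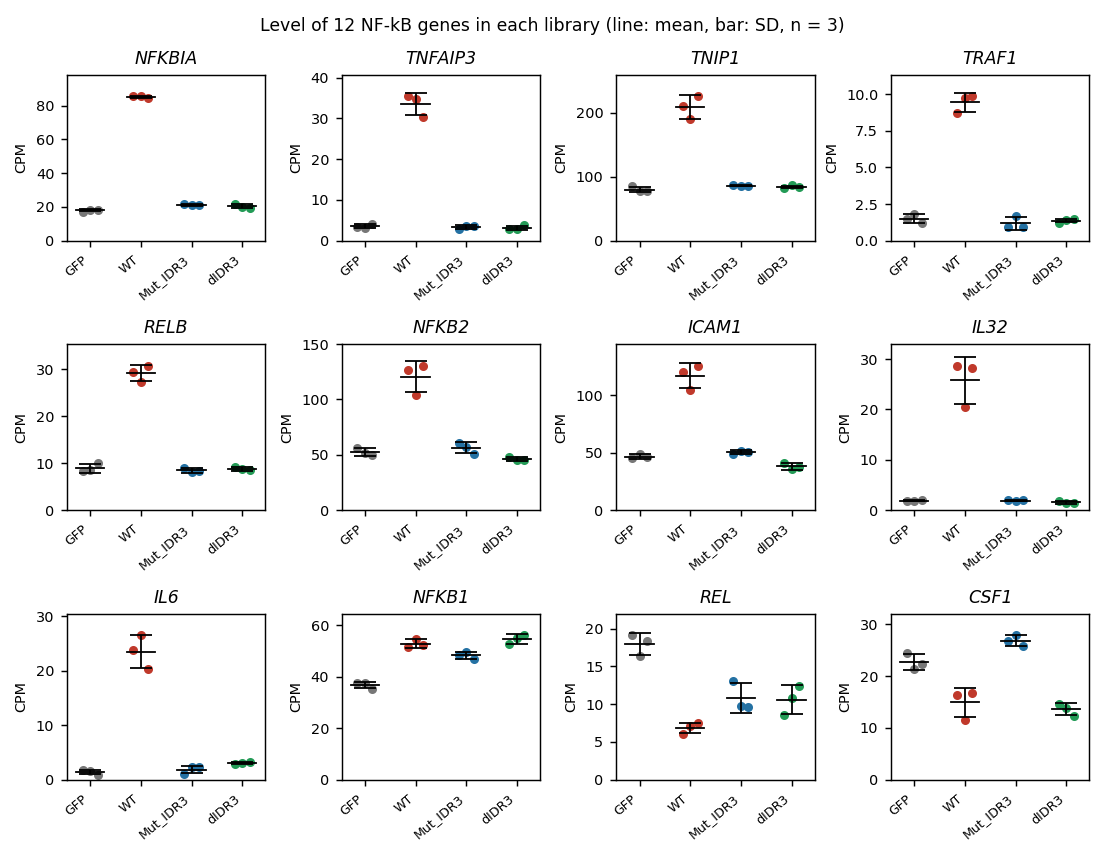
CPM of 12 members in every library, with the mean as a line and the SD as a bar (n = 3 per group); each panel has its own axis from 0. In 9 panels the WT points lie above all others, as for NFKBIA at 84.4 to 85.6 CPM, while NFKB1 is raised in all TFAP2β groups, REL is lowest in WT and CSF1 is low in WT and dIDR3.

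Among the 7 kinases and their scaffold, MAP3K8, MAP3K14, IKBKE and IKBKG rose in WT, CHUK fell, and IKBKB and RIPK2 were not called. MAP3K8, a MAP kinase activator held by the NFKB1 precursor, was at 3.45, 4.59 and 5.13 CPM with GFP, 11.02, 12.6 and 12.7 CPM in WT, 4.12, 3.29 and 4.04 CPM in Mut_IDR3 and 5.07, 4.29 and 4.36 CPM in ΔIDR3. WT alone stood apart, 2.75-fold over GFP (adjusted p = 2.87e-06). MAP3K14, the kinase that starts the noncanonical pathway, was at 47.5, 42.2 and 41.6 CPM with GFP, 75.6, 57.3 and 75.9 CPM in WT, 44.8, 38.1 and 39.3 CPM in Mut_IDR3 and 47.4, 48.6 and 45.2 CPM in ΔIDR3. Its rise of 1.59-fold (adjusted p = 5.46e-05) was smaller, with WT again above every other library. CHUK, the catalytic IKK subunit that the noncanonical pathway requires, was at 55.7, 54.6 and 69.5 CPM with GFP, 28.9, 39.7 and 35.9 CPM in WT, 56.6, 46.8 and 46.9 CPM in Mut_IDR3 and 55.1, 65.3 and 61.1 CPM in ΔIDR3. It was lowest in WT, 1.72-fold under GFP (adjusted p = 6.9e-05), and higher in both mutants than in WT. With GC offsets the calls in WT against GFP (log2 -0.21, adjusted p = 0.0728) and in Mut_IDR3 against WT (0.205, adjusted p = 0.0939) were lost. CHUK overlaps ERLIN1 on the same strand.

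IKBKE, an IKK-related kinase of the interferon response, was at 9.65, 9.22 and 9.799 CPM with GFP, 13.2, 12.5 and 13.1 CPM in WT, 10.6, 8.604 and 8.58 CPM in Mut_IDR3 and 10.03, 9.896 and 9.65 CPM in ΔIDR3. WT was above the rest by 1.35-fold over GFP (adjusted p = 0.00287), a call lost with GC offsets (0.606). IKBKG, the regulatory subunit of the IKK complex, was 1.21-fold higher in WT (0.0235) and did not differ from WT in either mutant at the threshold. The rise in WT was lost without GFP replicate 3, WT replicate 1 or WT replicate 3 (adjusted p = 0.0587 to 0.0919), and with GC offsets (0.358). That gene has a near-identical pseudogene copy, so its counts are uncertain. The other catalytic subunit, IKBKB, had log2 fold changes of -0.09, -0.08 and -0.08 against GFP in WT, Mut_IDR3 and ΔIDR3, none of them called. RIPK2, the adaptor kinase of NOD receptors, had a log2 fold change of 0.13 in WT (adjusted p = 0.25) and was lower in Mut_IDR3 than in WT (1.203-fold, adjusted p = 0.0255). That last call was lost when WT replicate 2, Mut_IDR3 replicate 2 or Mut_IDR3 replicate 3 was left out (adjusted p = 0.0605 to 0.11).

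Of the 10 ubiquitin editors, TRAF and IAP proteins, 5 rose in WT, 1 fell and 4 were not called. TNFAIP3 encodes A20, the ubiquitin editor that ends signalling from TNF receptors, and its window holds the pair of kB matches shown. It was at 3.45, 3.07 and 4.02 CPM with GFP and at 35.5, 34.8 and 30.4 CPM in WT. Mut_IDR3 held 2.89, 3.68 and 3.596 CPM and ΔIDR3 2.72, 2.96 and 3.75 CPM. The GFP and mutant libraries overlapped and the WT libraries were all far above them. The rise was 9.498-fold (log2 3.25, SE 0.15, adjusted p = 3.54e-10). Against GFP the 95% interval of the log2 difference was -0.38 to 0.27 in Mut_IDR3 and -0.49 to 0.16 in ΔIDR3. Its binding partner TNIP1 was at 84.6, 77.7 and 77.1 CPM with GFP, 211, 189.8 and 226 CPM in WT, 86.8, 85.4 and 85.5 CPM in Mut_IDR3 and 82.9, 86.2 and 84.4 CPM in ΔIDR3. WT was 2.62-fold over GFP (adjusted p = 2.64e-10), and the mutants were 2.43-fold and 2.47-fold below WT.

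TRAF1, an adaptor without the ubiquitin ligase domain of its relatives, was at 1.51, 1.83 and 1.18 CPM with GFP, 8.73, 9.77 and 9.88 CPM in WT, 0.932, 1.695 and 0.928 CPM in Mut_IDR3 and 1.22, 1.403 and 1.48 CPM in ΔIDR3. It rose 6.304-fold in WT (adjusted p = 4.15e-07), and the other groups overlapped. TNIP2, another partner of A20, was at 29, 25.7 and 27.9 CPM with GFP, 39.3, 35.2 and 40.4 CPM in WT, 30.7, 35.9 and 30.4 CPM in Mut_IDR3 and 38.3, 32.6 and 33.9 CPM in ΔIDR3. All TFAP2β groups exceeded GFP without overlap, and the test was passed in WT (1.39-fold, adjusted p = 0.000454) and in ΔIDR3 (1.27-fold, 0.0122; 0.0708 without GFP replicate 2 and 0.0813 without ΔIDR3 replicate 1). The call in WT was lost with GC offsets (0.255). TRAF2, the adaptor of TNF receptors, rose 1.27-fold in WT and 1.35-fold in ΔIDR3. Its calls were lost without GFP replicate 3 (adjusted p = 0.0791 in WT and 0.0573 in ΔIDR3) and, in WT, without WT replicate 3 (0.0833) or with GC offsets (0.771). The ligase gene BIRC2 fell 1.34, 1.31 and 1.21-fold against GFP in WT, Mut_IDR3 and ΔIDR3. The fall of BIRC2 in Mut_IDR3 was lost without GFP replicate 3 or Mut_IDR3 replicate 1 or 2 (adjusted p = 0.0521 to 0.0681). In ΔIDR3 it was lost without GFP replicate 2 or 3, ΔIDR3 replicate 1 or 3 or any 1 Mut_IDR3 library (0.051 to 0.152). With GC offsets BIRC2 was called higher in WT (log2 0.21, adjusted p = 0.0465), and the calls in Mut_IDR3 (0.38) and ΔIDR3 (0.347) were lost. The deubiquitinase gene CYLD had a log2 fold change of 0.24 in WT (adjusted p = 0.0975) and was lower in Mut_IDR3 than in WT (1.403-fold, adjusted p = 0.00344). The ligase gene BIRC3, a described target, was at 1.57 ± 0.0923 CPM with GFP and 2.42 ± 0.767 CPM in WT (adjusted p = 0.16), and was lower in ΔIDR3 than in WT (2.15-fold, adjusted p = 0.0199; 0.094 without WT replicate 3 and 0.076 without ΔIDR3 replicate 2). The ligases TRAF3 and TRAF6 passed no comparison, with log2 fold changes of -0.06 and -0.04 in WT against GFP.

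Among the 6 cytokines tested, IL32, IL6, LIF, TNF and LTB were higher in WT and CSF1 was lower. For TNF and LTB this was bound to be so, since they passed the filter only through WT. IL32, a cytokine of activated epithelium and lymphocytes, was at 1.85, 1.74 and 2.01 CPM with GFP and at 28.7, 20.4 and 28.1 CPM in WT. It was at 1.93, 1.72 and 2.04 CPM in Mut_IDR3 and at 1.87, 1.403 and 1.403 CPM in ΔIDR3. WT stood 13.7-fold over GFP (log2 3.78, SE 0.17, adjusted p = 2.96e-10), with the other groups overlapping. IL6 (chr7:22725884-22732002, plus strand, GRCh38), the acute-phase cytokine, was at 1.71, 1.55 and 0.901 CPM with GFP and at 23.7, 26.5 and 20.3 CPM in WT. In Mut_IDR3 it was at 1.03, 2.27 and 2.27 CPM and in ΔIDR3 at 2.94, 3.07 and 3.19 CPM. WT was highest, ΔIDR3 lay above every GFP and Mut_IDR3 library, and Mut_IDR3 overlapped GFP. IL6 rose 17.1-fold in WT (adjusted p = 1.42e-08) and 2.23-fold in ΔIDR3 (0.00439). The difference between the mutants, a log2 value of -0.71 for Mut_IDR3 against ΔIDR3, did not pass the test (adjusted p = 0.0927), but did with DESeq2 (0.0344). IL6 overlaps STEAP1B on the opposite strand.

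LIF, a cytokine of the IL6 family, was at 11.4, 12.2 and 9.71 CPM with GFP, 23.6, 21.1 and 22.1 CPM in WT, 11.6, 11.97 and 10.1 CPM in Mut_IDR3 and 12.5, 10.4 and 9.41 CPM in ΔIDR3. It rose 2.02-fold in WT (adjusted p = 6.26e-06), and neither mutant differed from GFP at the threshold. CSF1, the growth factor of macrophages, was the exception. Its level was 24.4, 21.5 and 22.4 CPM with GFP, 16.4, 11.6 and 16.7 CPM in WT, 26.8, 27.9 and 25.8 CPM in Mut_IDR3 and 14.7, 13.8 and 12.3 CPM in ΔIDR3. WT and ΔIDR3 overlapped and lay under GFP, and Mut_IDR3 lay over all of them. The fall was 1.52-fold in WT and 1.67-fold in ΔIDR3 (adjusted p = 0.000563 and 0.000418), and Mut_IDR3 was 1.97-fold over ΔIDR3 (adjusted p = 0.000207).

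The 3 remaining cytokines rest on few counts. TNF, a classical activating ligand of the pathway, had 4 counts in the 3 GFP libraries together, 79 in WT, 0 in Mut_IDR3 and 19 in ΔIDR3. Against a floor of 3 counts over the Mut_IDR3 group, the observed counts were 26.6-fold higher in WT and 5.95-fold higher in ΔIDR3. These folds leave out the counting error of the higher group, so they are not strict lower bounds. The adjusted p was 0.00231 for WT against GFP, 0.000569 for Mut_IDR3 against WT and 0.0356 for ΔIDR3 against WT, the last of which was lost without any 1 of the WT and ΔIDR3 libraries (adjusted p = 0.0755 to 0.118), with GC offsets (0.0557), with the replicate block (0.0603) and with no filter (0.0927). LTB, a membrane-bound ligand of lymphoid tissue, had 5 counts with GFP, 60 in WT, 4 in Mut_IDR3 and 5 in ΔIDR3. Its call in WT against GFP (adjusted p = 0.0304) was lost without GFP replicate 1 or 3 or WT replicate 1 or 2 (0.076 to 0.123), with GC offsets (0.0576) and with no filter (0.0693). Its calls in the mutants against WT were lost without WT replicate 1 or 2 or replicate 1 or 2 of the mutant (0.0641 to 0.0988), and in ΔIDR3 with no filter (0.0523). CSF2, the growth factor of granulocytes and macrophages, had 5 counts in WT, 2 in ΔIDR3 and 0 in the other groups, and was not tested.

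Of the 5 other targets, ICAM1, CD83 and SOD2 rose in WT, and TNFAIP2 and CFLAR were not called. ICAM1, the adhesion molecule for leukocytes, was at 45.1, 48.6 and 46.3 CPM with GFP, 121, 105 and 126 CPM in WT, 48.6, 51.8 and 50.6 CPM in Mut_IDR3 and 41.2, 35.6 and 37.6 CPM in ΔIDR3. WT was 2.51-fold over GFP (adjusted p = 4.37e-09), while ΔIDR3 was under GFP without overlap (1.22-fold, 0.0114). SOD2, the mitochondrial superoxide dismutase, was at 83.8, 91.9 and 93.9 CPM with GFP, 124, 137 and 116 CPM in WT, 105, 102 and 101 CPM in Mut_IDR3 and 109, 101 and 99.7 CPM in ΔIDR3. The groups ran from GFP through the mutants to WT, a rise in WT of 1.396-fold (adjusted p = 2.37e-05). Against GFP SOD2 was not called in Mut_IDR3 (adjusted p = 0.0556) and was called higher in ΔIDR3 (0.0404). The call in ΔIDR3 was lost in at least 1 fit with a single library left out (adjusted p up to 0.221). With GC offsets both mutants were called higher than GFP (0.000911 and 0.0013). SOD2 overlaps WTAP and ACAT2 on the opposite strand, and its second listed row held 2 counts in all. CD83, a surface protein of activated immune cells, was at 4.95, 6.46 and 5.5 CPM with GFP, 11.5, 17.9 and 11.3 CPM in WT, 6.49, 5.06 and 7.05 CPM in Mut_IDR3 and 9.06, 7.896 and 7.5 CPM in ΔIDR3. Its WT libraries were the highest but spread widely, and the rise was 2.41-fold (adjusted p = 4.12e-05).

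TNFAIP2, a gene first found as induced by TNF, was at 48.9, 50.5 and 47.1 CPM with GFP, 53.9, 48.2 and 55.9 CPM in WT, 56, 55.7 and 52.6 CPM in Mut_IDR3 and 63.7, 69.9 and 61.8 CPM in ΔIDR3. It was highest in ΔIDR3, 1.33-fold over GFP (adjusted p = 0.000613) and 1.24-fold over WT (0.00227). CFLAR, an inhibitor of death-receptor signalling, was at 18.4 ± 1.47 CPM with GFP, 20.1 ± 1.35 in WT, 14.2 ± 2.42 in Mut_IDR3 and 10.8 ± 0.893 in ΔIDR3 (SD, n = 3). It fell below GFP in both mutants, 1.296-fold (adjusted p = 0.0387) and 1.702-fold (0.000298), and the call in Mut_IDR3 was lost without GFP replicate 2 or 3 or Mut_IDR3 replicate 1 or 3 (adjusted p = 0.0934 to 0.146), with the replicate block (0.0563) and with GC offsets (0.123).

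Mut_IDR3 against ΔIDR3 compares the 2 altered proteins, which had like levels of TFAP2B RNA (log2 difference -0.01, adjusted p = 0.989). Of the members 3 were higher in Mut_IDR3, 3 were lower and 32 were not called, against 5.54% higher and 5.24% lower over all features. Of the called features 51.4% were higher in Mut_IDR3, and 65.3% with upper-quartile scaling. The higher members were CSF1, BCL3 and ICAM1, the last by 1.32-fold (adjusted p = 0.00468), and these calls held whichever single library was left out. The lower members were CYLD (1.39-fold, adjusted p = 0.0183), TNFAIP2 (1.19-fold, 0.0389) and TNF (adjusted p = 0.0389). CYLD was lost without Mut_IDR3 replicate 1 or 2 or ΔIDR3 replicate 2 or 3 (0.0548 to 0.0915), TNFAIP2 without any 1 library of GFP or of the mutants (0.0503 to 0.156), with upper-quartile scaling (0.0507) and with the replicate block (0.0653), and TNF without any 1 library of the mutants or WT replicate 1 (0.056 to 0.109) and with the block (0.0714). The count of lower members was 0 or 1 without any 1 of the 6 libraries of these groups, and that of higher members was 5 without WT replicate 2. The median log2 difference was -0.09 over the members and -0.01 over all features. For the members most changed in WT the 95% intervals of the log2 difference between the mutants were -0.09 to 0.22 for NFKBIA, -0.21 to 0.44 for TNFAIP3, -0.10 to 0.67 for IL32 and -0.28 to 0.17 for RELB.

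Fold changes in these libraries moved with the GC content of the transcript. Spearman's rho between the fold changes and GC was taken across the 12724 tested features with a GC value. It was 0.52 in WT, 0.44 in Mut_IDR3 and 0.20 in ΔIDR3 when each was set against GFP. Set against WT it was -0.40 in Mut_IDR3 and -0.45 in ΔIDR3. Features are not independent replicates. The GC offsets were fitted on features with a mean of at least 1 CPM. With offsets that remove this trend, 21 of the 26 higher and 2 of the 4 lower members kept their call in WT against GFP. Of the 18 called changes of at least 2-fold 17 were still called, LTB being the exception, and 11 were still at least 2-fold. The 6 that were called but under 2-fold were LIF, BCL3, ICAM1, NFKBIE, NFKB2 and REL. NFKBIA went from a log2 fold change of 2.25 to 1.99, TNFAIP3 from 3.25 to 3.10, IL32 from 3.78 to 3.44 and IL6 from 4.10 to 4.23. CHUK, with a low GC content of 39.1%, went from -0.78 to -0.21. BIRC2, at 38%, went from -0.43 to 0.21. IKBKE, IKBKG, TNIP2 and TRAF2, with GC contents of 58.7 to 62.6%, lost their rise. CYLD, RIPK2, CFLAR, BIRC3 and TRAF6, not called before, were then called higher, as was BIRC2, and TNFAIP2 and TRAF3 were called lower. Of the members lower than in WT, 23 of 26 in Mut_IDR3 and 21 of 24 in ΔIDR3 kept their call, and of the 3 higher in each, 1 and 2 kept it. In Mut_IDR3 IKBKE, TNIP2 and NFKBIB lost the lower call and REL and CHUK the higher one, and in ΔIDR3 IKBKE, NFKBIB and TNF the lower and REL the higher one. Of the calls against GFP, 3 of 5 higher and 1 of 3 lower ones were kept in Mut_IDR3, and 9 of 10 and 4 of 5 in ΔIDR3.

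**Figure D4:**
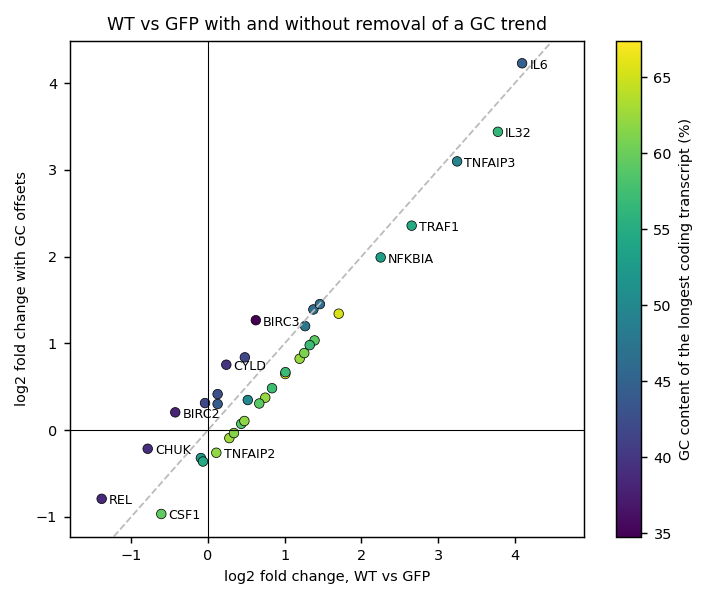
Each point is a tested member other than TNF and LTB, with 12 of them named; the horizontal axis is the log2 fold change of WT vs GFP, the vertical axis the same with GC offsets, colour the GC content in percent, and the dashed line marks equal values. Members with large rises such as IL6 and TNFAIP3 stay near the line, GC-rich members fall below it, and GC-poor members such as BIRC3, CYLD, CHUK and BIRC2 lie above it.

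Other genes of the pathway were counted in a list of upstream genes and a list of further targets. Both lists were chosen with earlier results of these data known, so they give no independent support. The list of 42 receptors, adaptors and other upstream genes had 39 tested in WT against GFP, of which 15 were higher, 13 lower and 11 not called, with a median log2 fold change of 0.11; over all features 27.7% were higher and 27.1% lower. The adaptor genes TICAM1 (log2 fold change 1.31) and BCL10 (0.89) and RBCK1 (0.52), a subunit of the linear ubiquitin ligase, rose with the lowest adjusted p-values. The ubiquitin ligase ITCH (-0.89), the kinase adaptor TAB3 (-0.67) and TAX1BP1 (-0.86), an adaptor of A20, fell. The list of 30 other described targets had 24 tested, of which 21 were higher, 1 lower and 2 not called, with a median of 1.10. PLAUR, the urokinase receptor, had the lowest adjusted p of those that rose (log2 fold change 3.06), followed by the early response gene IER3 (2.01) and the transcription factor IRF1 (1.52), and OLR1, a scavenger receptor, fell (-1.52). In the mutants against WT 22 of these 24 targets were lower in Mut_IDR3 and 21 in ΔIDR3, with medians of -1.06 and -1.18, where 20.9% and 25.0% of all features were lower. Of the 39 upstream genes 11 and 13 were lower and 13 and 12 higher, where 23.2% and 27.2% of all features were higher. Against GFP 4 of the targets were higher and 3 lower in Mut_IDR3, with 11.2% and 9.85% of all features, and 6 were higher and 9 lower in ΔIDR3, with 15.6% and 13.4%.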

How the data were processed

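The authors deposited 1 table of raw read counts per gene for 12 libraries, which were used as deposited. The tools and build named, per the submitters' processing notes, are HISAT2, StringTie, Trim Galore and GRCh38 (hg38). Versions, the counting program, its annotation and its strand setting are not given in the sources used here. RNA came from a Qiagen RNeasy kit and libraries from a SMARTer mRNA kit, per the labels' protocols. The 4328 unnamed features called NewGene were kept in the fit.

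Features were kept by filterByExpr (minimum count 10), given TMM factors and fitted in 1 model of the 4 groups (8 residual degrees of freedom). Comparisons were tested by quasi-likelihood in edgeR. P-values were adjusted by Benjamini-Hochberg over the 14792 features of each comparison, and features were called at 0.05. CPM used TMM-scaled library sizes. Folds against a group at 0 were taken from 3 counts summed over that group, the upper 95% limit for its counting error. The counting error of the higher group was not included. For 3 libraries against 3 the smallest exact p is 0.1. Coordinates of genes and GC content (longest coding transcript) came from GENCODE 29, promoters from RefSeq. The software was edgeR 4.0.16 with limma 3.58.1, and DESeq2 1.42.0, in R 4.3.3. The code was tested on simulated counts.

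The members and lists were chosen with earlier results of these data known, so they give no independent support. Every tested member is named with a value; values of each library are given for the 4 members of each role with the lowest adjusted p in WT against GFP, and other lists name up to 3 called members in each direction by adjusted p. NFKB1, NFKBIZ, CFLAR, TNF and other members outside that rule are given by means, counts or folds. The alternatives tried were scaling by upper quartiles or by median ratios, no filter, DESeq2, the replicate number as a block, GC offsets over 20 bins, both together, and single libraries left out.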

Additional observations from a re-analysis of the deposited data

How the results depend on the processing

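Of 4332 values for single members under an alternative, 3921 kept their direction and their side of the threshold, 167 lost the call and 78 gained one in the same direction, and 166 changed sign. Of these sign changes 148, among them all 95 from leaving out single libraries, were of members called in neither fit. In WT against GFP the members called higher numbered 23 to 27 and the lower ones 4 when single libraries were left out, with a median of 0.67 to 0.81. In Mut_IDR3 against WT 24 to 26 were lower and 3 higher (median -0.66 to -0.52), and in ΔIDR3 against WT 20 to 24 were lower and 3 to 4 higher (median -0.75 to -0.64). In Mut_IDR3 against GFP 2 to 8 were higher and 1 to 5 lower (median -0.015 to 0.065), and in ΔIDR3 against GFP 5 to 10 and 4 to 6 (median -0.04 to 0.044). In Mut_IDR3 against ΔIDR3 3 to 5 were higher and 0 to 3 lower (median -0.086 to -0.042). The replicate numbers did not pair the libraries: the 18 same-numbered pairs had correlations of deviations of -0.07 to 0.08, and 3 of 12 libraries correlated best with their own number. With the replicate block 1 member was lower in Mut_IDR3 than in ΔIDR3, and the counts of the other comparisons moved by less than 1.5 times.

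With GC offsets the median in Mut_IDR3 against GFP was -0.039 and that in ΔIDR3 against GFP -0.004. With the replicate block and GC offsets together these were -0.04 and -0.003, with 3 members higher in Mut_IDR3. Upper-quartile scaling gave -0.005 in ΔIDR3 against GFP. In ΔIDR3 against WT 7 members were higher with GC offsets and 5 with the block as well. In Mut_IDR3 against ΔIDR3 5 were higher with median-ratio scaling, upper-quartile scaling, no filter, DESeq2 and GC offsets, which also gave 6 lower and a median of -0.12; the block with GC offsets gave -0.12 and upper-quartile scaling -0.058. The cause of these shifts was not tested.

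The other 18 sign changes, of members called in at least 1 of the fits, came with GC offsets, with or without the block. In WT against GFP these were IKBKG (-0.091 both ways), TRAF2 (-0.033 and, with the block, -0.030), BIRC2 (0.21 and, with the block, 0.20), TNFAIP2 (-0.26 both ways) and TRAF6 (0.31 without the block). In Mut_IDR3 against WT they were IKBKG (0.22 both ways) and BIRC2 (-0.32 both ways). In ΔIDR3 against WT they were BIRC2 (-0.31 both ways), TNIP2 (0.19 without the block) and NFKBIB (0.063 and, with the block, 0.062). Depth limits TNF, LTB and CSF2, each under 100 counts per group.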
